A study of Mus musculus with 6 samples.

Results

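The 5 genes described here, Plppr1 to Plppr5, encode the plasticity-related phospholipid phosphatase proteins, and each was read on 1 row of an expression array in embryonic mouse brain. Their rows were those whose platform annotation names 1 gene only, that gene being a family member, and they are 5 of 19938 genes so measured. RNA came from the entire brain of mice at embryonic day 16.5, from olfactory bulb to brain stem, with 1 Affymetrix Mouse Gene 1.0 ST array per brain. The wild-type group had 3 embryos, and the mutant group had 3 with the Tdp2Δ1-3 allele, which lacks exons 1 to 3, and neither group was treated. Tdp2 encodes the enzyme that frees 5' ends of DNA breaks from trapped topoisomerase II. The comparison asks how the brain transcriptome differs without it. The sources used here give no strain, sex or litter. The family was selected on the differences of its members between these 2 genotypes, which were already known, so the members' values, and any count of them below, are a description, with no p given for a member.

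The family belongs to the superfamily of lipid phosphate phosphatases, membrane enzymes that remove the phosphate from lysophosphatidic acid (LPA), sphingosine 1-phosphate (S1P) and related signalling lipids. The Plppr proteins cross the membrane several times like those enzymes but lack residues of the catalytic site, and they are abundant in the nervous system. In neurons they are known for filopodia, neurite growth and branching, and for a role in how synapses and growth cones respond to LPA, which otherwise collapses growth cones through its receptors and RhoA.

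Every value is a log2 value that had been centred on the median of its row over the 6 arrays. A value therefore shows a brain's position among these brains, and neither the abundance of a gene nor the order of the members by level can be read from it. For the same reason the presence of brain markers as such could not be checked. Tdp2, the deleted gene, lay between 0.90 and 1.34 in the wild types and between -1.05 and -0.90 in the mutants, which separates the arrays as labelled. Array medians lay between -0.011 and 0.014. Their titles make the replicates separate samples, and with 3 arrays per genotype the precision of each difference is limited.

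All 3 mutant brains had less Plppr5 and Plppr4 RNA than any of the wild-type brains. The protein of Plppr5 induces filopodia and spine-like protrusions in neurons. Wild-type replicates 1, 2 and 3 had centred log2 values of 0.40, 0.36 and 0.44 for this gene, against -0.36, -0.50 and -0.51 for mutant replicates 1, 2 and 3. The groups were far apart, and each varied little within itself. The mean was 0.40 ± 0.04 (SD, n = 3) in wild types and -0.46 ± 0.08 (SD, n = 3) in mutants. The log2 difference, mutant minus wild type, was -0.85 ± 0.05 (moderated SE from limma, n = 3 per genotype), which is 1.81-fold lower. Plppr4 encodes the family member found at the postsynaptic side of glutamatergic synapses, where it limits the action of LPA on the presynaptic terminal. In the same order, the wild types had centred log2 values of 0.33, 0.33 and 0.26, against -0.26, -0.48 and -0.50 for the mutants. Again no mutant reached the wild types, and mutant replicate 1 was the nearest to them. The log2 difference was -0.72 ± 0.07 (SE), 1.65-fold lower. Among all 23410 gene rows, ordered from the most negative difference, Plppr5 stood at position 18 and Plppr4 at position 44.

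**Figure D1:**
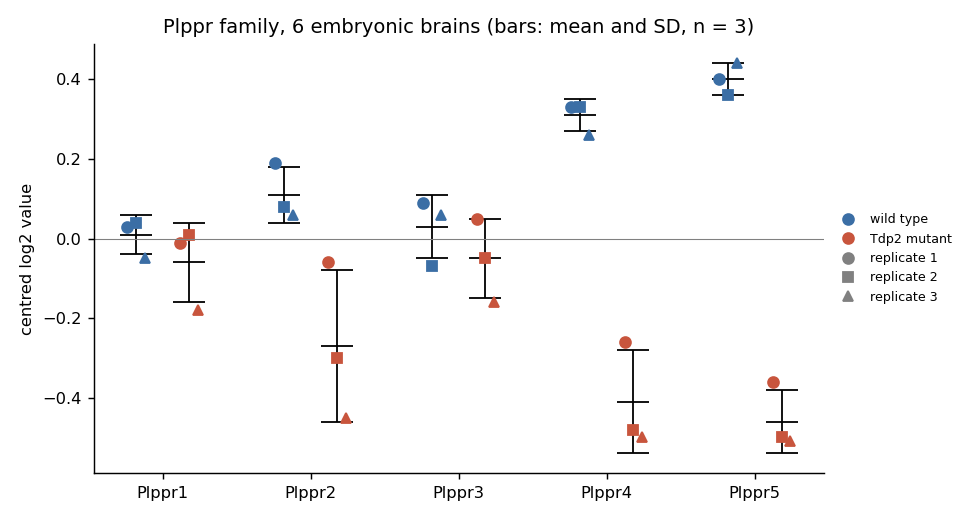
Centred log2 value (vertical axis) of each Plppr gene in the 3 wild-type brains (blue) and the 3 Tdp2 mutant brains (red), with marker shape for the replicate number and bars for the mean and SD. Plppr5 and Plppr4 are apart between the genotypes, Plppr2 is apart by less with wide mutant values, and Plppr1 and Plppr3 overlap.

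Plppr2 encodes a less studied member of the family. The wild types had centred log2 values of 0.19, 0.08 and 0.06, against -0.06, -0.30 and -0.45 for the mutants. The groups did not overlap, but the gap between the lowest wild type and mutant replicate 1 was smaller than the spread among the mutants. The mutants had a mean of -0.27 ± 0.19 (SD, n = 3) and the wild types 0.11 ± 0.07. The log2 difference was -0.38 ± 0.09 (SE), 1.30-fold lower. It was -0.12 after cyclic loess normalization between arrays, a step that here acts on centred values, and -0.29 without mutant replicate 3. The within-genotype spread of Plppr2 was larger than that of 93.1% of gene rows, against 43.8% for Plppr5.

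Plppr1 and Plppr3 had values that overlapped between the genotypes. For Plppr1, which promotes neurite outgrowth and filopodia, the wild types had centred log2 values of 0.03, 0.04 and -0.05, against -0.01, 0.01 and -0.18 for the mutants. Its log2 difference was -0.07 ± 0.06 (SE). For Plppr3, an axonal protein that induces filopodia and branches, wild-type values were 0.09, -0.07 and 0.06, against 0.05, -0.05 and -0.16 for the mutants. Its log2 difference was -0.08 ± 0.07 (SE). In both genes the lowest value of all was that of mutant replicate 3, and without that array the differences were smaller, -0.01 for Plppr1 and -0.03 for Plppr3.

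Read as a set, the 5 members had negative differences, with a median of -0.38 against 0.013 over all gene rows. The limma fit over all gene rows called 4.13% of them lower at an adjusted p under 0.05, and 2 members (Plppr4 and Plppr5) are among those rows. Both are also among the 0.641% of rows, in either direction, that were called and reached 1.5-fold, the limit named in the series text. In 3 of the 5 every mutant lay below every wild type, a pattern shown by 12.6% of rows. These counts describe how the family was chosen, and nothing is drawn from them, because it was proposed from this same contrast.

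**Figure D2:**
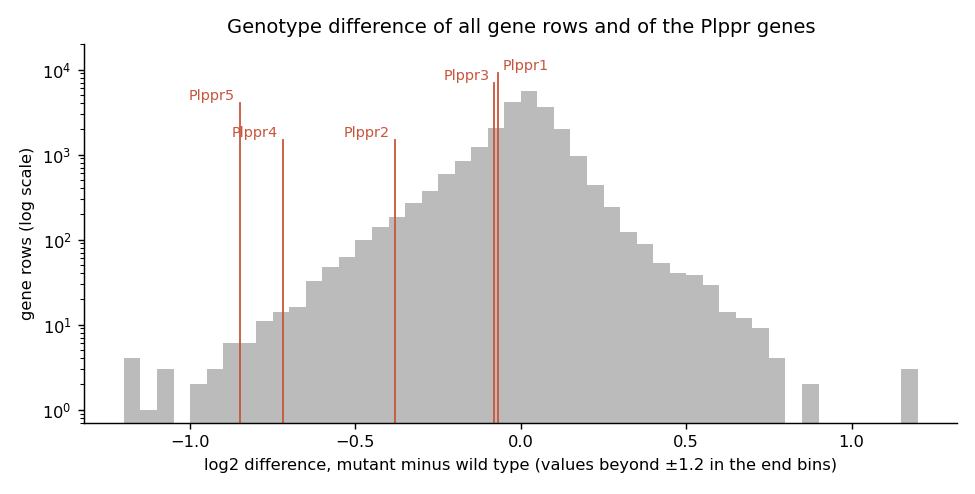
Histogram of the log2 difference, mutant minus wild type (horizontal axis), over 23410 gene rows, with the number of rows on a log scale and red lines at the 5 Plppr genes. Plppr5 and Plppr4 lie in the far left tail, Plppr2 at -0.38 on its shoulder, and Plppr1 and Plppr3 within the bulk.

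RNA of a whole brain mixes many cell types, and fewer cells of a type and less RNA per cell cannot be told apart here. Markers of neurons were lower in the same mutants. All 12 neuron markers had negative differences (median -0.22), and 3 of them passed, namely Snap25 by -0.42 ± 0.09 and Syt1 by -0.38 ± 0.07, which encode vesicle fusion and release proteins, and Gad1 by -0.20 ± 0.04 (limma adjusted p = 0.038, 0.018 and 0.037). With mutant replicate 2 left out, or either of wild-type replicates 1 and 2, limma called none of the 12, while 5, 6 and 6 had an unadjusted p under 0.05. Without mutant replicate 1, 6 passed, without mutant replicate 3, 1 did, and with the replicate number as a block 6 did. The general neuronal genes Tubb3, Dcx and Map2 had differences of -0.03, -0.03 and -0.04. The mean centred value over the 12 markers lay between 0.04 and 0.13 in the wild types and between -0.26 and -0.02 in the mutants. The part of this shift in the difference of the Plppr genes was not tested.

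Each member was also set against the neuron marker mean of the same array, a comparison chosen after its values were seen. The members were selected on these same differences, so the values below are a description and test no part of the marker shift. Plppr5 minus that mean was 0.28, 0.23 and 0.40 for the wild types against -0.34, -0.33 and -0.25 for the mutants, a difference of -0.61. Plppr4 minus the mean was 0.22, 0.20 and 0.22 for the wild types against -0.24, -0.32 and -0.24 for the mutants, a difference of -0.48. On this scale the mutants varied less in Plppr4 (SD 0.04) than in its own values (SD 0.13). Among the wild types the SD was larger on this scale for Plppr5 (0.09 against 0.04) and Plppr3 (0.11 against 0.08). It was smaller for Plppr1, Plppr2 and Plppr4. Plppr2 had a difference of -0.14, with wild-type replicate 2 at -0.05 below mutant replicate 1 at -0.04, so its groups overlapped. The marker mean itself had a difference of -0.24, so a gene with no genotype difference is higher in the mutants on this scale. The share of all gene rows with every mutant above every wild type on this scale was not computed. Plppr1 and Plppr3 were less low than the mean of the 12 markers, with differences of 0.18 and 0.16, and for both genes every mutant lay above every wild type. That holds for the mean and not for each marker, since Tubb3, Dcx and Map2 had differences closer to 0 than those of Plppr1 (-0.07) and Plppr3 (-0.08).

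**Figure D3:**
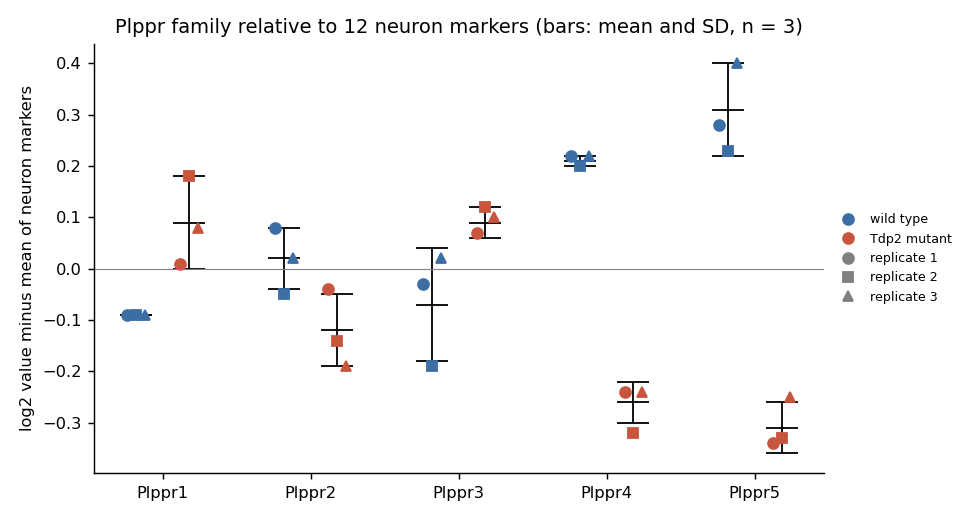
Log2 value of each Plppr gene minus the mean of 12 neuron markers on the same array (vertical axis), by genotype, with bars for the mean and SD of 3 brains. Plppr4 and Plppr5 are lower in the mutants by 0.48 and 0.61, while for Plppr1 and Plppr3 the mutants lie above the wild types. The marker mean itself is lower in the mutants.

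Some markers of other cell types also differed in these arrays. Of 54 marker genes, those of neurons included, 38.89% were called, against 6.47% of all gene rows. The 9 measured genes of cycling cells, Mki67, Top2a, Ccna2, Cdk1, Aurkb, Bub1, Cenpf, Kif11 and Ncapg, all rose (median 0.63), and 2 passed without mutant replicate 2, 7 without wild-type replicate 2 and 8 without mutant replicate 3. Their mean centred value was -0.48 to -0.20 in wild types and 0.20 to 0.39 in mutants. Of 7 astrocyte markers 3 were lower, the water channel gene Aqp4 (log2 difference -0.51), the connexin gene Gja1 (-0.28) and Sparcl1 (-0.65). Of the 7 astrocyte differences 5 were negative, and those of Slc1a2 (0.03) and Gfap (0.07) were positive. Of 6 oligodendrocyte lineage markers 2 were lower, the growth factor receptor gene Pdgfra (-0.58) and the transcription factor gene Olig1 (-0.72). The difference of Olig1 was -0.02 after cyclic loess (limma adjusted p = 0.89), a step that here acts on centred values. It was -0.92 to -0.56 with 1 array left out, and the cause of the move under cyclic loess was not tested. Limma called no astrocyte marker when mutant replicate 2 or 3 or either of wild-type replicates 1 and 2 was left out, and 5, 4, 3 and 3 then had an unadjusted p under 0.05. For the oligodendrocyte lineage limma called none when wild-type replicate 2 or mutant replicate 2 was left out, with an unadjusted p under 0.05 for 3 and 2. The oligodendrocyte count was 3 without mutant replicate 1 and 1 when any of the other 3 arrays was left out. Of 5 endothelial markers 1 was lower, the tight junction gene Cldn5 (-0.35). Of the 5 endothelial differences 4 were negative, and that of Pecam1 was 0.04. The limma adjusted p of Cldn5 rose to 0.057 or 0.08 on leaving out the first or the second wild type. It rose to 0.11 or 0.081 on leaving out the second or the third mutant. Of 5 meningeal markers 1 was lower, the matrix gene Ogn (-0.54), and its adjusted p was 0.056 with mutant replicate 2 left out. Of the 5 meningeal differences 4 were negative, and that of Lum was 0.08. Hba-x and Hbb-y, which encode embryonic globins, rose among 5 red-cell genes, with log2 differences of 1.44 and 3.79. The other 3 did not pass, namely the embryonic globin gene Hbb-bh1 (0.14), Alas2 (-0.07) and Slc4a1 (0.07). None of 5 microglial markers passed limma's test (1 at an unadjusted p under 0.05, and 1 called with array weights). The part of these cell types in the values of the Plppr genes was not tested.

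The 2 members of greatest difference lie on the same chromosome, and the part of position in their differences was not tested. In the RefSeq annotation of assembly GRCm38.p6, Plppr4 and Plppr5 lie next to each other on chromosome 3 with no protein-coding gene between them, on opposite strands and pointing away from each other, while Plppr1, Plppr2 and Plppr3 lie on chromosomes 4, 9 and 10. The 3 protein-coding genes on each side of every member, a rule set after the members' values were seen, comprised 24 genes, of which 22 were measured. Of these 1 was lower and 1 higher, against 6.47% of all gene rows called. Snx7, a sorting nexin gene beside Plppr5, was lower by 0.35 ± 0.06 on the log2 scale (limma adjusted p = 0.016). The adjusted p of Snx7 was 0.078 with wild-type replicate 2 left out, 0.068 for mutant replicate 2 and 0.057 for mutant replicate 3. Palmd, on the other side of Plppr4, had a difference of 0.08 ± 0.10, and Frrs1, Dpyd and Ptbp2 had differences of -0.14, -0.03 and 0.03 that did not pass. Beside Plppr3, Ptbp1, a splicing regulator of neural progenitors, rose by 0.35 ± 0.05 (limma adjusted p = 0.0087, and 0.058 without mutant replicate 2). The genomic span is 280.8 kb for Plppr1, 114.9 kb for Plppr5, 41.7 kb for Plppr4, 14.5 kb for Plppr3 and 13.2 kb for Plppr2. The part of span in the members' differences was not tested.

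**Figure D4:**
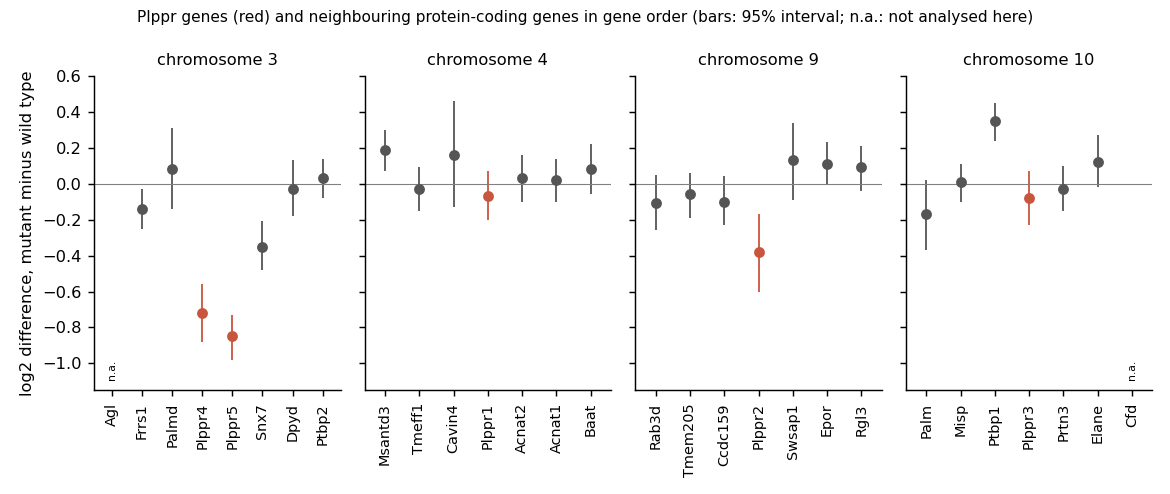
Log2 difference, mutant minus wild type (vertical axis), with 95% intervals, for each Plppr gene (red) and neighbouring protein-coding genes (grey) in gene order, 1 panel per chromosome. On chromosome 3 the adjacent Plppr4 and Plppr5 are lowest and Snx7 lies at -0.35, while Palmd is near 0.

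The promoters of the members that were lower in every mutant are shown as the 250 bases before the annotated start, from RefSeq's GRCm38.p6 table, which held all 5 members. The windows are chr3:117360877-117361126 on the minus strand for Plppr4, chr3:117574977-117575226 on the plus strand for Plppr5 and chr9:21936760-21937009 on the plus strand for Plppr2. Capitals mark the octamer ATGCAAAT, the motif bound by POU-domain factors.
Plppr4: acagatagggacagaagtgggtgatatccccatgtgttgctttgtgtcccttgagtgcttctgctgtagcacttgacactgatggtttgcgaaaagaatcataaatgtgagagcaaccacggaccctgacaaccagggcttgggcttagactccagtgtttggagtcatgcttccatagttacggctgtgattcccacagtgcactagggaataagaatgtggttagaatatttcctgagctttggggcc
Plppr5: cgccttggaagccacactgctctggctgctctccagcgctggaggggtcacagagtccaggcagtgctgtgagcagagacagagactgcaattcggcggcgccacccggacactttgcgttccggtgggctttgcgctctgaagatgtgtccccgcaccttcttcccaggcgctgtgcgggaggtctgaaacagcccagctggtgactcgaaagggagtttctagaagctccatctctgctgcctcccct
Plppr2: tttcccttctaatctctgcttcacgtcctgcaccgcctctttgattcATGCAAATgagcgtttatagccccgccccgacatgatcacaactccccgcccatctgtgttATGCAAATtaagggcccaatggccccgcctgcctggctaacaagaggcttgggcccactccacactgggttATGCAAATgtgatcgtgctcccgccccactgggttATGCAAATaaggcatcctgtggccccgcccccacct
The adjacent genes Plppr4 and Plppr5 had unlike windows. That of Plppr4 held 48.0% G and C with an observed over expected CpG ratio of 0.21, and that of Plppr5 held 61.6% with a ratio of 0.55, against medians of 52.4% and 0.37 over 32851 windows of the same length. In Plppr2 the octamer stands 4 times on the plus strand, starting 203, 142, 71 and 36 bases before the start. At least 1 octamer was found in 1.60% of windows, and as many as 4 in 1 window, which is that of Plppr2. This motif was chosen after the sequence was seen. On both strands 5 other motifs were searched, the GC box GGGCGG, the TATA box TATAAA, the E-box CAGATG, the cAMP response element TGACGTCA and the CCAAT box CCAAT, which occur in 32.7%, 12.4%, 14.4%, 1.55% and 33.8% of windows. None of the 6 was found in the windows of Plppr3, Plppr4 or Plppr5. Plppr1 held 2 GC boxes, and Plppr2 held 4 GC boxes, of which 1 overlaps its single E-box by 1 letter, 1 TATA box and 1 CCAAT box. A match describes letters in a window and not a bound site.

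The enzymes related to the family, the ligands and receptors of the same lipids, and the actin machinery they reach were read from lists that cover 61 measured genes. Of these 1 was higher and 2 were lower in the mutants (4.92%, against 6.47% of all gene rows), with a median difference of -0.04. These 3 calls were not kept in every fit that left out 1 array. Their log2 differences in those fits were -0.30 to -0.26 for Agk, -0.25 to -0.20 for Gap43 and 0.26 to 0.35 for Lpar6. Leaving out wild-type replicate 2 or mutant replicate 2 left limma no call among the 61 genes, while 12 and 9 had an unadjusted p under 0.05. Over all gene rows the same 2 fits called 335 and 145, against 1515 in the main fit. The count was 1 when mutant replicate 3 or either of wild-type replicates 1 and 3 was left out and 8 for mutant replicate 1. With the replicate number as a block 5 passed, and with array weights 14 did.

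Among the 9 genes listed as lipid phosphate phosphatases every difference was negative, with a median of -0.13. None passed limma's test, while 4 had an unadjusted p under 0.05. The count of lower calls was 2 with the replicate block, 4 with array weights and 2 with mutant replicate 1 left out. The nearest were Sgpp1, a phosphatase of S1P, at -0.22 ± 0.06 (limma adjusted p = 0.066) and Plpp5 at -0.16 ± 0.04 (adjusted p = 0.078). Plpp4 had the most negative difference, -0.33 ± 0.13, with mutant replicate 3 at -0.53. Its groups overlapped, since mutant replicate 1 at 0.02 lay above wild-type replicate 3 at -0.02.

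Of 6 genes of LPA production, Agk was lower. Agk encodes a mitochondrial kinase that makes LPA from monoacylglycerol. The wild types had values of 0.17, 0.13 and 0.11, against -0.18, -0.11 and -0.15 for the mutants, and the groups did not overlap. The difference was -0.28 ± 0.04 (limma adjusted p = 0.013), and it did not pass without wild-type replicate 2 (0.061) or mutant replicate 2 (0.058). Liph, a phospholipase that makes LPA, had a difference of -0.10 ± 0.05 (adjusted p = 0.35). Enpp2, which encodes the main LPA-producing enzyme outside cells, was not analysed here.

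Of 5 LPA receptor genes, Lpar6 was higher. The wild types had values of -0.26, -0.07 and -0.16, against 0.07, 0.15 and 0.21 for the mutants, with no overlap. The difference was 0.30 ± 0.06 (limma adjusted p = 0.030). It passed without mutant replicate 1, while leaving out any other array gave adjusted p values of 0.057 to 0.12. Lpar4 had a difference of 0.13 ± 0.05 (adjusted p = 0.15). Lpar2, the presynaptic receptor with which Plppr4 is linked at glutamatergic synapses, had a difference of -0.02 ± 0.05 (95% interval -0.15 to 0.10).

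The S1P genes did not pass limma's test, neither the 5 of production, breakdown and export (1 at an unadjusted p under 0.05) nor the 5 receptors (1 at an unadjusted p under 0.05, and 1 called higher with array weights). Sgpl1, the lyase that degrades S1P, had 0.16 ± 0.05 and the exporter gene Spns2 -0.16 ± 0.08. Among the receptors S1pr1 had 0.12 ± 0.04 and S1pr4 0.12 ± 0.07. The 13 genes of the RhoA cascade below LPA receptors had a median of -0.05, and none passed limma's test (2 at an unadjusted p under 0.05), against 2 lower with array weights and 1 without mutant replicate 1. Arhgef12, a RhoA exchange factor, had -0.13 ± 0.04 (adjusted p = 0.12) and Gnaq, a G protein subunit, -0.16 ± 0.06 (adjusted p = 0.16). Rhoa itself differed by 0.00 ± 0.05.

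Among genes for reported protein partners of the family, Itgb1 and 3 subunit genes of protein phosphatase 2A were measured and none passed limma's test (0 at an unadjusted p under 0.05, and 1 called lower with array weights). Ppp2r1a had a difference of -0.12 ± 0.06 and Ppp2ca -0.07 ± 0.04. Of 14 genes of filopodia and growth cone actin, 1 was lower. Gap43, the growth-associated protein of axons, had a difference of -0.22 ± 0.05 (limma adjusted p = 0.030). It too passed without mutant replicate 1 and with no other array left out (adjusted p of 0.07 to 0.12). Ezr, whose protein ezrin ties membrane to actin, had a difference of 0.24 ± 0.06 (adjusted p = 0.054). The genes Lpar5, Rock2 and Arhgdia were not analysed here.

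**Figure D5:**
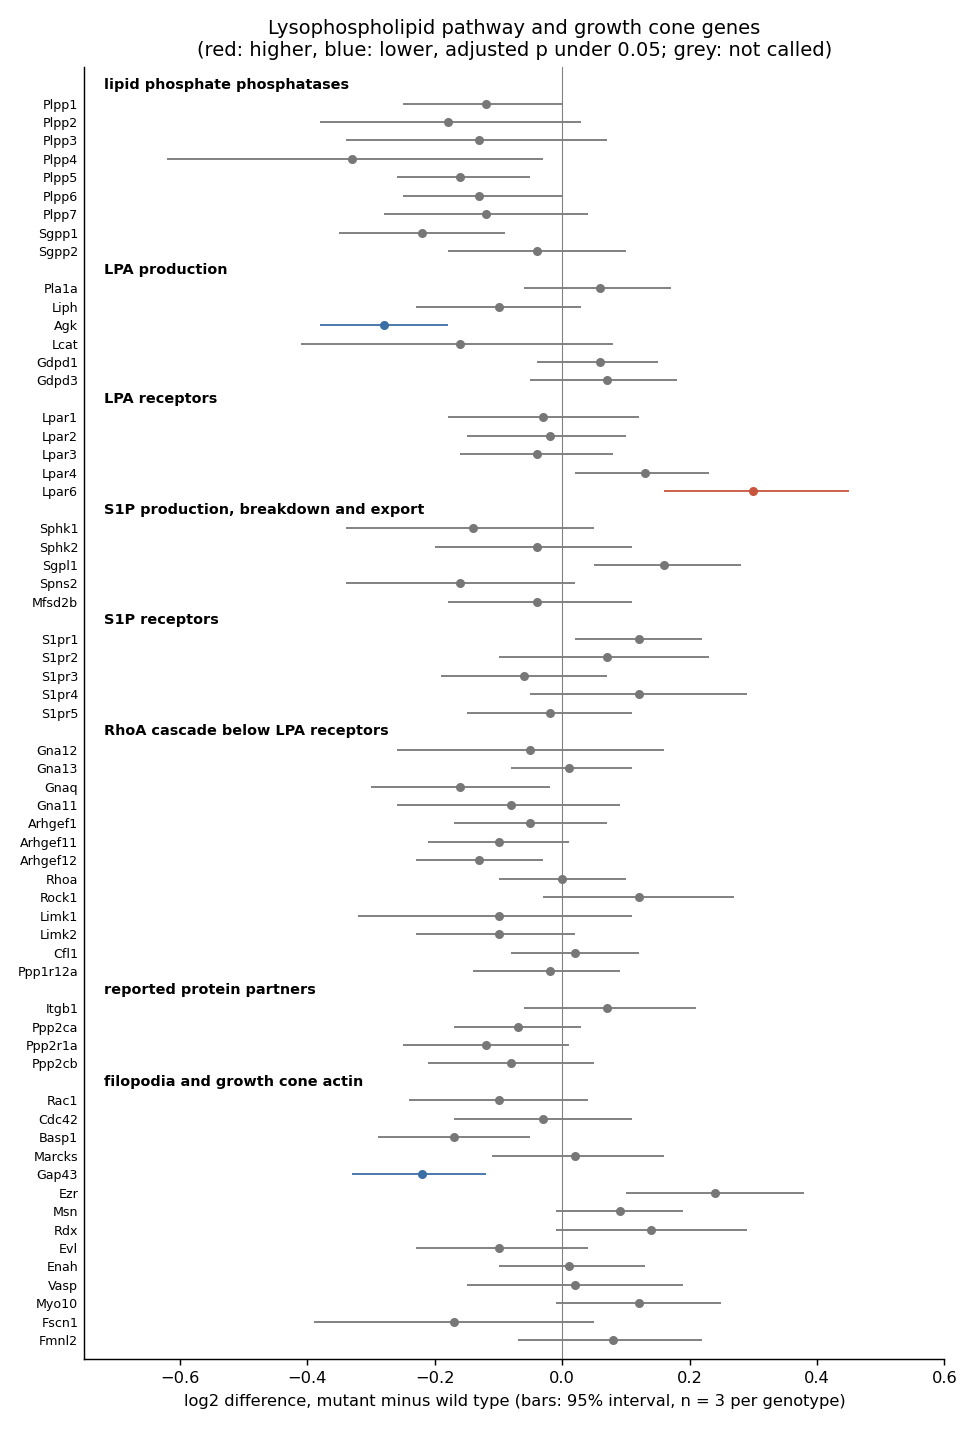
Log2 difference, mutant minus wild type (horizontal axis), with 95% intervals for 61 genes of lysophospholipid signalling and growth cone actin, in their lists; blue and red mark genes that passed limma's test. Agk and Gap43 are lower, Lpar6 is higher, and the lipid phosphate phosphatases all lie left of 0 without passing.

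The genes whose values followed each member most closely over the 6 arrays were found by Pearson's r among 1-gene rows with an SD of at least 0.1. These r values describe 6 points, which for Plppr2, Plppr4 and Plppr5 also share the genotype split. For Plppr5 the closest were Bend6 (r = 0.9974), Edaradd (0.9963) and Zcchc12 (0.9957), which had differences of -0.69, -0.31 and -0.32. For Plppr4 they were Fam3c (0.9997), Slc24a4 (0.9986) and Camk2b (0.9984), with differences of -0.40, -0.27 and -0.57. For Plppr2 they were Gabbr1 (0.9996), Olig1 (0.9993) and Shisa9 (0.9992). Many rows came nearly as close to these members, since r was over 0.95 for 376 rows with Plppr5, 550 with Plppr4 and 718 with Plppr2, out of 7755. For Plppr1 the closest were Sema4d, Cdh9 and Nqo1 (0.9938 to 0.9889), and for Plppr3 Rfk, Pafah2 and Tmem151a (0.9742 to 0.9698), with 13 and 12 rows over 0.95. With the mean of each genotype taken out, r was 0.99 for the genes closest to Plppr1, 0.97 for Plppr3 and 1.0 for Plppr2. It was 0.96 to 1.0 for Plppr4 and 0.89 to 1.0 for Plppr5. The genes were picked by r over these same arrays, so their values within genotypes are no separate evidence.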

How the data were processed

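RNA of 6 brains was measured on Affymetrix Mouse Gene 1.0 ST arrays. The deposited values are on a log2 scale and were normalized by the authors with Robust Multi-Array Average, per the series text. Affymetrix Expression Console is named in the submitters' processing notes. The log base is that of the method, since the deposited table states none. Row medians were 0 (at most 5e-07 away), which shows a centring that no label describes. Levels and a filter on dim rows were therefore not available.

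Of 28856 rows, 21789 name 1 gene, 1621 several and 5446 none. Symbols were updated through RefSeq GRCm38.p6, which held 21698 of the 1-gene rows, and the list genes used 1 row per gene, that with most accessions. The genotypes were compared in 23410 gene rows with limma 3.58.1 in R 4.3.3 (lmFit, eBayes, two-sided, Benjamini-Hochberg), and calls were made below an adjusted p of 0.05. Errors are moderated standard errors. The fit was tested on simulated data. Genes were named by a rule: the members, Tdp2, in each pathway list the called genes and the 2 of smallest p, called markers, and the 3 rows most like each member. Outside that rule, Lpar2, Rhoa, Plpp4, Tubb3, Dcx, Map2 and the genes beside the members were named after their values were seen. So were the markers Slc1a2, Gfap, Pecam1, Lum, Hbb-bh1, Alas2 and Slc4a1. Members and lists were chosen with earlier results of these data known. The alternative settings left out single arrays, blocked on the replicate number, set array medians equal, used cyclic loess or array weights, tested all rows or required 1.5-fold.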

Additional observations from a re-analysis of the deposited data

Results flagged for a closer look

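A row outside the member and list rows was called in the fit over all gene rows. The annotation of 1 further row lists Plppr1 together with Mtfr1, so the row was left out of the members by the rule on rows of 1 gene. The wild types had values of -0.16, -0.11 and -0.11, against 0.11, 0.21 and 0.26 for the mutants, a difference of 0.32 ± 0.05 (limma adjusted p = 0.013). The row naming Plppr1 alone had -0.07 ± 0.06. Of its 11 annotated accessions the shared row has 1 in common with the 5 of the Plppr1 row. The value cannot be assigned to either gene.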

How the results depend on the processing

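As a description, the members' differences over the 11 alternative fits were all negative, Plppr5 between -0.90 and -0.83, Plppr4 between -0.80 and -0.59, Plppr2 between -0.49 and -0.12, Plppr3 between -0.13 and -0.02 and Plppr1 between -0.10 and -0.01. Where groups do not overlap, leaving out an array cannot turn a sign. Cyclic loess moved Plppr2 to -0.12 and Plppr4 to -0.59, and the cause was not tested. Counts of calls moved more. Of 61 pathway genes 3 passed, against 14 with array weights, 5 with the replicate block, 0 with the 1.5-fold limit in limma (14 had an unadjusted p under 0.05) and 0 to 8 with 1 array left out. Of 54 marker genes 21 passed, against 32 with array weights, 10 with the 1.5-fold limit and 4 to 26 with 1 array left out. Over all gene rows 1515 passed, against 5425 with array weights, 2400 with the replicate block, 150 with the 1.5-fold limit and 145 to 2501 with 1 array left out. The lowest counts came without mutant replicate 2, and for the pathway genes also without wild-type replicate 2. The series text speaks of pairs of brains. Same-numbered arrays correlated in their deviations from the group means by 0.21, 0.05 and 0.20, against -0.22 to 0.06 for arrays of unlike number. Mutant replicate 2 correlated no better with its own number (0.05) than with wild-type replicate 3 (0.06). Deviations within a group of 3 sum to 0, so these values are not independent and cannot decide whether the numbers mark pairs. The main fit left the arrays unpaired, and the counts with the replicate block are given beside it. Background correction and a filter on dim rows could not be varied on centred values.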
